A study of Mus musculus with 20 samples.

Results

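The regions described here carried H3K4me3 in both fetal and adult mouse hematopoietic stem cells (HSCs), lacked H3K27me3 at both stages, and had an H3K27ac peak at 1 stage only. They were found by merging the fetal and adult H3K4me3 peaks of chromosomes 1 to 19 wherever these shared at least 1 bp, which gave 17586 regions. Of these, 14892 held H3K4me3 peaks of both stages, and 11655 of those met no H3K27me3 peak of either stage. A total of 511 regions had an H3K27ac peak in the fetal list only and are called fetal-only, and 326 had one in the adult list only and are called adult-only. The 837 regions made up 7.18% of the 11655. The other regions, 10016 with H3K27ac in both lists and 802 with H3K27ac in neither, served as the classes to compare with.

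The cells came from B6129SF1 mice. Fetal HSCs were sorted from the liver at embryonic day 14.5 and adult HSCs from the bone marrow of mice aged 6 to 8 weeks, in both cases as lineage-negative, Sca1+, cKit+ and CD135- cells. Chromatin immunoprecipitation followed by sequencing (ChIP-seq) was done on 50000 sorted cells per reaction for H3K4me3, H3K27ac, H3K4me1 and H3K27me3, and input DNA was sequenced as well, with 2 replicates for each of the 10 groups. The labels do not say how many mice or embryos each sample held, and the sort keeps stem cells together with other early progenitors. Adult marrow and fetal liver also differ as organs, so stage and organ cannot be told apart. The values came from 8 peak lists, 1 for each mark and stage, in which the replicates had been combined.

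Trimethylation of lysine 4 on histone H3 marks the start sites of active and poised genes and tends to be broader and stronger at more active promoters. Acetylation of lysine 27 is written by the coactivators p300 and CBP at active promoters and enhancers, and cannot stand on the same histone tail residue as the Polycomb mark H3K27me3. Monomethylation of lysine 4 covers enhancers and usually flanks the H3K4me3 of a promoter on both sides. Fetal liver HSCs are known to divide often, whereas most adult marrow HSCs are quiescent.

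Since every list pools its replicates, the values carry no replicate error and the stages were compared without a test. Stage, library and peak calling cannot be told apart in any difference between the lists. Ranges in parentheses are 95% intervals, exact Clopper-Pearson for shares and from order statistics for medians. They cover counting error over regions only, and neighbouring regions are not independent. The read depth behind the lists is unknown. The lists held 16567 fetal and 16156 adult H3K4me3 peaks, 23368 and 17834 of H3K27ac, 92339 and 12502 of H3K4me1, and 14579 and 22831 of H3K27me3. Regions are named by position in the mouse build mm9, counted from 1. Gene positions of that build were not used here, so no gene is named, the regions are called H3K4me3 regions and not promoters, and marker genes of HSCs or of other cells were not checked.

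Regions acetylated in 1 stage were few against those acetylated in both. The fetal-only class was 4.38% of the 11655 regions and the adult-only class 2.80%, against 85.9% (85.3 to 86.6) with H3K27ac in both lists and 6.88% (6.43 to 7.36) with it in neither. Among the 837 regions, 61.1% (57.7 to 64.4) were fetal-only. The fetal H3K27ac list was the longer one, and this majority was not kept when the lists were made equal in length. When the 17834 top-scoring fetal H3K27ac peaks were set against all adult ones, 287 regions were fetal-only and 789 adult-only, and the fetal-only share was 26.7%. Only fetal peaks were left out there, so the fetal-only count could only fall and the adult-only count only rise. By construction the 287 lay among the 511 fetal-only regions, and the 326 adult-only regions among the 789. With only the peaks at or above the median score of each list, 1057 regions were fetal-only and 547 adult-only, or 65.9% fetal-only. Why the share moved was not tested.

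The H3K27ac that defined the regions was weak within its list at both stages. The regions were chosen by whether an H3K27ac peak was called in each list, so these values are given as a description. Every peak carries a score from the authors' peak caller, which is used here only to rank peaks within a list, as a percentile from 0 for the lowest to 100 for the highest. The median H3K27ac score was 125.6 in the fetal-only class, at percentile 27.4 (24.9 to 29.5) of the fetal list, and 96.5 in the adult-only class, at percentile 20.7 (19.2 to 23.1) of the adult list. Regions acetylated in both lists had a median at percentile 74.3 of the fetal list and 69.8 of the adult list. Only 78 of the 511 fetal-only regions and 14 of the 326 adult-only regions had an H3K27ac score above the median of its list. A score under 100 was found for 39.1% of the fetal-only and 52.1% of the adult-only regions, where the lowest scores in the lists are about 50. The curves of H3K27ac rank and extent show both classes crowded into the low ranks.

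**Figure D1:**
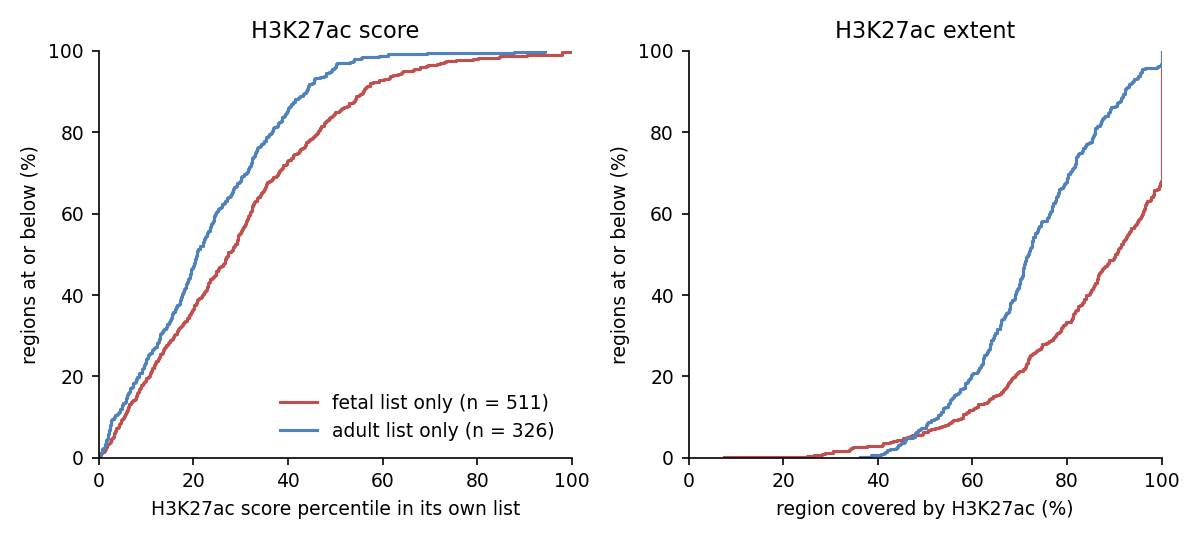
Cumulative share of the 511 fetal-only (red) and 326 adult-only (blue) regions, on the left against the percentile of their H3K27ac score within its own list and on the right against the percent of the region covered by H3K27ac. Both classes have medians below percentile 30 of their own list, and the fetal-only curve lies to the right in the extent plot, with a median of 90.2% covered against 71.8%.

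The H3K27ac peaks lay differently on the regions in the lists of the 2 stages. In the fetal-only class the peak had a median width of 1263 bp (1203 to 1335) and covered 90.2% of the region, and it covered the whole region in 31.9% of cases. In the adult-only class the peak was 1052.5 bp wide (1022 to 1094) and covered 71.8%, and only 3.37% of regions were covered whole. The peak lay entirely inside the H3K4me3 region in 26.8% of fetal-only and 74.8% of adult-only regions. A contrast of the same direction was present among regions acetylated in both lists, where the fetal peak was inside the region in 32.9% of cases and the adult peak in 60.7%, so it was not particular to the regions acetylated in 1 stage.

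The rule admits a region that lies beside acetylated chromatin of the other stage. A peak of the missing stage lay within 1 kb of 15 fetal-only regions (2.94%) and of 16 adult-only regions (4.91%). The median distance to it was 25210 bp (21136 to 30426) for fetal-only and 14344 bp (11788 to 16930) for adult-only regions, and the nearest lay 59 and 65 bp away. Another adult peak lay within 1 kb of 3.86% of regions acetylated in both and of 12 of the 802 acetylated in neither. Another fetal peak did so for 4.01% and for 19 of the 802. In the same order, median distances were 18324.5 and 40461 bp to another adult peak, and 14174.5 and 31778.5 bp to another fetal peak. The adult-only interval thus held the distance of regions acetylated in both, and the fetal-only median lay between those of both and neither. In 15 fetal-only and 4 adult-only regions the region's own H3K27ac peak reached beyond the region and met a peak of the other stage there, so that the acetylated domain as a whole was shared. Without these, 496 fetal-only and 322 adult-only regions remained.

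The 8 fetal-only regions with the highest H3K27ac scores were all of that kind. Each was between 991 and 1699 bp wide and lay under a fetal H3K27ac peak of 4855 to 11096 bp, while the nearest adult H3K27ac peak lay 428 to 4683 bp from the region. The highest score, 3185.51, belonged to chr16:23984237-23985692, where a fetal H3K27ac peak of 6730 bp overlapped 1238 of the 1456 bp and an adult H3K27ac peak began 1311 bp away. Its H3K4me3 was at percentile 36.6 of the fetal list and 38.6 of the adult list. At chr13:83668429-83669564 the fetal H3K27ac peak was the widest of the 8, at 11096 bp, and the nearest adult peak was 1200 bp from the region. At chr10:120312673-120313701 a fetal H3K27ac peak of 10384 bp covered an H3K4me3 region whose H3K4me3 ranked only at percentile 4.3 of the fetal list and 6.1 of the adult list. All 8 regions also held a fetal H3K4me1 peak and none held an adult one.

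Below these 8 stand fetal-only regions whose own peak met no adult H3K27ac at all. The 4 with the highest scores were singled out after their values had been seen. The region chr1:40142057-40143109 was covered whole by a fetal H3K27ac peak of 5491 bp with a score of 1023.5, at percentile 79.2, and the nearest adult H3K27ac peak lay 34246 bp away. At chr1:89991197-89992616 a fetal peak of 2692 bp scored 911.56, and the nearest adult peak lay 85638 bp away. At chr13:23842707-23844183 the fetal score was 865.47, but 4 adult H3K27ac peaks lay within 10 kb, the nearest 3252 bp away. At chr6:26714671-26717184 a fetal H3K27ac peak covered 2510 of 2514 bp with a score of 787.44, and the nearest adult peak was 954568 bp away. H3K4me3 at this last region covered 2457 bp in the fetal list, at percentile 53.1, and 1641 bp in the adult list, at percentile 27.4 of that list. Fetal H3K4me1 was present in the regions on chromosomes 1 and 6 and absent from the one on chromosome 13, and none had an adult H3K4me1 peak.

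Of the 8 adult-only regions with the highest scores, 2 had an adult H3K27ac peak that met fetal acetylation outside the region. These were chr3:87713464-87715346, with a score of 2196.89 under an adult peak of 4971 bp, and chr11:87611793-87613874, with a score of 1487.65 under a peak of 5605 bp. The next was chr2:26483157-26485427, where an adult H3K27ac peak of 2417 bp covered 2174 of 2271 bp with a score of 681.21, at percentile 69.4. Its H3K4me3 ranked at percentile 47.9 of the fetal list and 65.2 of the adult list, it held 3 fetal and 1 adult H3K4me1 peaks, and 4 other adult H3K27ac peaks lay within 10 kb against 2 fetal ones. At chr13:55636785-55638669 the H3K4me3 was strong in both lists, at percentiles 66.0 and 69.2, and an adult H3K27ac peak scored 492.01 while the nearest fetal one lay 5622 bp away. The region chr8:125200473-125203402, 2930 bp wide, was among both the highest-scoring and the widest adult-only regions and had an H3K27ac score of 366.75, a fetal H3K4me3 percentile of 98.8 and H3K4me1 in both lists. Apart from the top 2, the 6 remaining regions scored between 366.75 and 681.21.

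Overlaps just inside and just outside the rule are given here once, as a description. The fetal-only region with the least H3K27ac was chr5:113591289-113592683, of which 104 of 1395 bp were covered by a fetal peak that also met an adult peak outside. The next ones had 357 bp, which was the whole of a region on chromosome 17, and 387 bp. In the adult-only class the smallest overlaps were 505, 570 and 583 bp, each by a peak lying wholly inside its region, with scores of 50.18, 53.64 and 51.79. Just outside the rule, among regions acetylated in both lists, chr3:151104975-151106148 shared only 48 bp with a fetal H3K27ac peak of 6250 bp and 812 bp with an adult one. A region on chromosome 6, chr6:70793346-70794321, shared 61 bp with an adult peak and 961 bp with a fetal one. Asking for 200 bp of overlap in place of 1 bp gave 511 fetal-only and 327 adult-only regions.

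Fetal-only regions were narrower than adult-only regions, and both were narrower than regions acetylated in both stages. The median width was 1212 bp (1171 to 1240) for fetal-only, 1463.5 bp (1409 to 1522) for adult-only and 2218 bp (2202 to 2236) for regions acetylated in both, against 1094 bp (1064 to 1117) where neither list had H3K27ac. The upper quartile of the fetal-only widths was 1453.5 bp, which is below the adult-only median. The ranges nonetheless overlapped, from 357 to 3924 bp for fetal-only and up to 6533 bp for adult-only regions.

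H3K4me3 rank followed the same order in both lists. In the fetal H3K4me3 list the median percentile was 22.2 (20.2 to 24.1) for fetal-only and 36.5 (34.3 to 38.4) for adult-only regions. The adult H3K4me3 list gave 19.6 (17.9 to 21.4) and 37.0 (34.4 to 38.3). Regions acetylated in both stages stood at percentile 82.6 of the fetal and 67.2 of the adult list, and regions acetylated in neither at 17.9 and 17.0. The adult-only regions thus ranked above the fetal-only ones in the fetal list too, where they had no H3K27ac peak. With equal numbers of H3K27ac peaks the medians were 21.3 and 39.6 in the fetal list and 18.96 and 39.3 in the adult list, and the widths 1216 and 1522 bp. The order of the 2 classes was kept in 8 of 8 alternatives for width and in 9 of 9 for each H3K4me3 percentile. Apart from the settings that cut the H3K27ac lists, these alternatives kept at least 94.17% of the members of each class, so they are not independent checks. The plot of width and H3K4me3 rank shows the quartiles behind these medians.

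**Figure D2:**
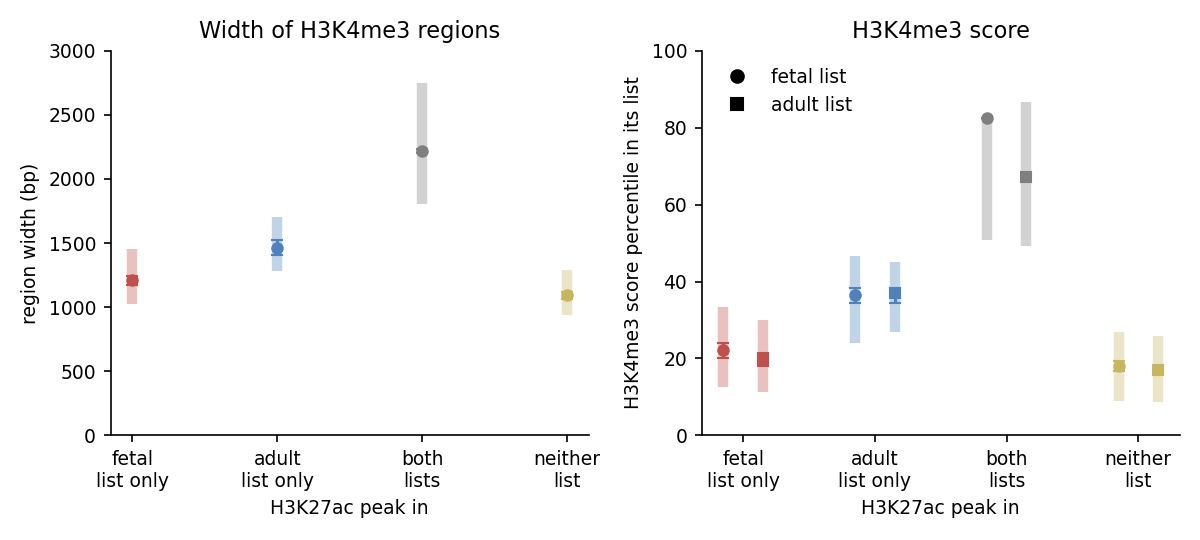
Width of the H3K4me3 regions in bp (left) and percentile of their H3K4me3 score within the fetal list (circles) and the adult list (squares) (right), by the list in which H3K27ac was called. Points are medians, whiskers 95% intervals of the median and pale bars the middle 50% of regions; fetal-only medians (1212 bp, percentiles 22.2 and 19.6) lie below adult-only ones (1463.5 bp, 36.5 and 37.0), and for regions with H3K27ac in both lists the fetal median meets the top of its bar because many peaks share the score 3100.

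The share of regions in each class changed with H3K4me3 rank, and in different ways. In the lowest band of the fetal H3K4me3 list, percentiles 0 to 10, 18.7% (15.5 to 22.3) of regions were fetal-only and 3.82% (2.35 to 5.83) adult-only. The fetal-only share was 15.5% at percentiles 20 to 30 and 3.98% (2.92 to 5.29) at percentiles 40 to 50. The adult-only share was highest in between, at 9.14% (7.25 to 11.3) for percentiles 30 to 40, and was then 7.87% (6.37 to 9.59) at 40 to 50. Above percentile 60 only 10 fetal-only and 16 adult-only regions remained among 6285. Ranking by the adult H3K4me3 list gave a fetal-only share of 20.9% and an adult-only share of 2.98% in the lowest band, and 2.56% and 6.45% at percentiles 40 to 50. With the full H3K27ac lists, fetal-only regions were therefore more frequent than adult-only ones below percentile 30 of either list. At percentiles 40 to 60 they were less frequent. The bands were not counted with equal numbers of H3K27ac peaks, which gave 287 fetal-only and 789 adult-only regions. The shares by band of H3K4me3 rank were computed after the class medians had been seen.

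**Figure D3:**
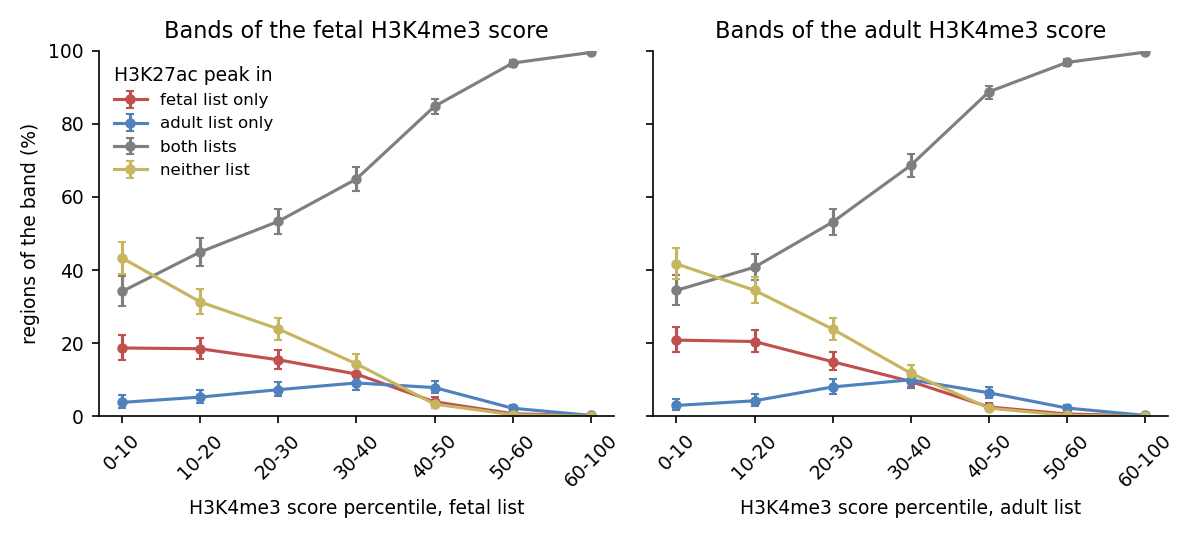
Percent of H3K4me3 regions without H3K27me3 that fall in each H3K27ac class, by band of H3K4me3 score percentile in the fetal list (left) and in the adult list (right). Points are shares and whiskers 95% exact binomial intervals; the fetal-only share falls from 18.7% in the lowest band of the fetal list to 0.159% in the highest, while the adult-only share peaks at 9.14% in the band from 30 to 40.

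Bands of region width gave a like picture, again counted with the full H3K27ac lists only. Under 1000 bp, 19.96% (16.7 to 23.5) of 551 regions were fetal-only and 3.45% (2.09 to 5.33) adult-only. Between 1250 and 1500 bp the shares were 11.4% (9.50 to 13.6) and 9.80% (8.02 to 11.8), and between 1500 and 2000 bp 2.61% (2.05 to 3.27) and 4.47% (3.73 to 5.30). Among the 6412 regions wider than 2000 bp, 98.7% were acetylated in both lists.

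The length covered by H3K4me3 was greater in the adult list in both single-stage classes. In the fetal-only class the fetal H3K4me3 peaks covered a median of 1048 bp and the adult ones 1128 bp, and the median difference within a region, fetal minus adult, was -95 bp (-121 to -76). In the adult-only class they covered 1323.5 and 1408.5 bp, with a median difference of -90 bp (-113 to -69). The fetal H3K4me3 covered more bp in 29.5% (25.6 to 33.7) of fetal-only and 28.5% (23.7 to 33.8) of adult-only regions, against 45.2% of all 11655 regions and 28.2% of those acetylated in neither stage. At regions acetylated in both, the median difference was -9 bp. The sign of the difference was thus the same in both classes, away from the acetylated stage in the fetal-only class and toward it in the adult-only class. Score percentiles were not compared between the 2 lists, which differ in length.

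The widest regions of each class show that H3K27ac can be missing from 1 list at strong H3K4me3. At chr13:23608025-23611921, 3897 bp wide, H3K4me3 scored 3100 in both lists, the value at which scores pile up, and a fetal H3K27ac peak of 975 bp had a score of only 104.37. At chr13:22111463-22114979 H3K4me3 covered 3424 bp in the fetal and 3234 bp in the adult list, and 2508 bp of the region were under fetal H3K27ac. The widest adult-only region, chr11:48666054-48672586, spanned 6533 bp with H3K4me3 at 3100 in both lists, 4 fetal H3K4me1 peaks and 2693 bp of adult H3K27ac scoring 83.6. At chr4:122959504-122962502 an adult H3K27ac peak of 2804 bp scored 355.21, while the nearest fetal H3K27ac peak was 26895 bp away. H3K4me3 extent differed between the lists at chr13:40954686-40958609, with 1997 bp in the fetal and 3924 bp in the adult list although the H3K27ac was fetal, and at chr12:105473856-105477549, with 1780 and 3694 bp and adult H3K27ac.

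H3K4me1 was next compared, a mark the rule did not use. A fetal H3K4me1 peak was present in 76.5% (72.6 to 80.1) of fetal-only and 73.3% (68.2 to 78.0) of adult-only regions, against 88.7% of all 11655 regions. Regions acetylated in both had one in 92.6% (92.1 to 93.1) of cases and regions acetylated in neither in 53.6% (50.1 to 57.1). The intervals of the 2 single-stage classes overlapped, so presence in the region did not separate them. The classes differ in width, and within each band of width the intervals overlapped too. Under 1000 bp the shares were 73.6% (64.4 to 81.6) of fetal-only and 57.9% (33.5 to 79.7) of adult-only regions. Above 2000 bp the order was reversed, at 75.7% (58.8 to 88.2) and 92.9% (76.5 to 99.1). Where present, the fetal H3K4me1 covered a median of 642 bp in fetal-only and 635 bp in adult-only regions.

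The place of the fetal H3K4me1 relative to the region did differ between the classes. It lay over the midpoint of the region in 34.4% (30.3 to 38.7) of fetal-only regions and 19.3% (15.2 to 24.04) of adult-only regions, compared with 10.9% (10.3 to 11.5) of regions acetylated in both, 22.1% (19.2 to 25.1) of those acetylated in neither and 1510 of all 11655 regions. The fetal-only share was the highest of the 4 classes, and the adult-only interval overlapped that of regions without H3K27ac. These shares also depend on how many regions held the mark at all. Where a fetal H3K4me1 peak was present, it lay over the midpoint in 176 of 391 fetal-only and 63 of 239 adult-only regions. The counts were 1094 of 9276 for regions acetylated in both and 177 of 430 for those acetylated in neither. A central place was thus not particular to the fetal-only class. Region width differs between the classes as well, with medians of 1212 bp for fetal-only and 1463.5 bp for adult-only regions. The median was 2218 bp where both lists had H3K27ac and 1094 bp where neither had. The midpoint shares were not counted by width, so the place of the mark and the width of the region cannot be told apart here. Fetal H3K4me1 reached into either 1 kb flank of 63.8% (59.5 to 68.0) of fetal-only and 44.5% (39.0 to 50.1) of adult-only regions, against 76.5% (75.7 to 77.3) where both lists had H3K27ac, 34.0% (30.8 to 37.4) where neither had and 72.1% of all. Both flanks carried it in 27.8% and 14.7%, against 34.4% where both lists had H3K27ac, 6.86% where neither had and 31.7% of all. In the flanks both single-stage classes thus lay below the share over all regions, the adult-only class further than the fetal-only class. Where a fetal H3K4me1 peak was present its median score was 185.81 (164.73 to 204.91) in fetal-only and 135.18 (125.22 to 151.83) in adult-only regions of the same list. It was 208.98 (205.35 to 213.36) in regions acetylated in both and 111.11 (100.97 to 126.12) in those acetylated in neither.

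Fetal H3K4me1 was also counted by band of H3K4me3 rank. Among regions at percentiles 0 to 10 of the fetal H3K4me3 list, fetal H3K4me1 was present in 86.7% (78.4 to 92.7) of the 98 fetal-only regions, in 94.4% of those acetylated in both and in 46.7% (40.1 to 53.4) of those acetylated in neither. Only 20 adult-only regions fell in this band, and 14 of them had it. At percentiles 30 to 40 the shares were 74.7% (64.8 to 83.1) of fetal-only, 74.7% (63.3 to 84.0) of adult-only, 87.1% of both and 59.3% of neither. The bands were an addition made once the values were known.

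In the adult list H3K4me1 was rare in every class, in 5.68% (3.83 to 8.05) of fetal-only and 6.75% (4.28 to 10.04) of adult-only regions, against 11.1% of all regions. The adult list is far shorter, and with as many top-scoring fetal H3K4me1 peaks as there are adult ones the fetal shares were 15.3% of fetal-only and 9.51% of adult-only regions, 21.8% of both and 3.99% of neither. An adult H3K4me1 peak lay over the midpoint of 5 fetal-only regions and of 0 of the 326 adult-only regions. The limit that a count of 0 allows is 3 counts, and its exact interval reached 1.13%. For presence in the region, the single-stage classes stood in both lists between regions acetylated in both stages and those acetylated in neither, as the bars of H3K4me1 by class show.

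**Figure D4:**
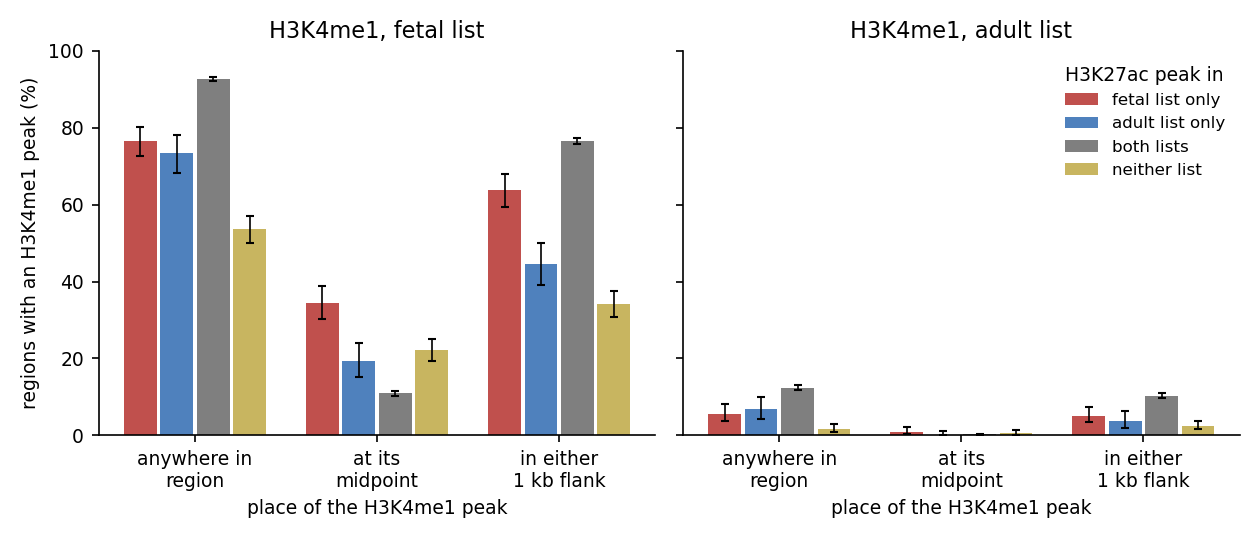
Percent of regions with an H3K4me1 peak of the fetal list (left) and the adult list (right) anywhere in the region, over its midpoint, or in either 1 kb flank, by H3K27ac class. Whiskers are 95% exact binomial intervals; in the fetal list the fetal-only bar exceeds the adult-only bar at the midpoint (34.4% against 19.3%) and in the flanks (63.8% against 44.5%), and in the adult list no bar is above 12.3%.

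Other H3K27ac peaks near the regions were then counted, leaving out any peak that touched the region itself. Another fetal peak lay within 10 kb of 39.9% (35.6 to 44.3) of fetal-only and 38.3% (33.0 to 43.9) of adult-only regions, against 39.4% of all regions. Another adult peak lay within 10 kb of 29.0% (25.1 to 33.1) and 36.5% (31.3 to 42.0), against 33.7% of all. Regions acetylated in both stages had 40.6% and 34.99%, and those acetylated in neither 23.7% and 19.3%. The intervals of fetal-only and adult-only regions overlapped for the neighbours of either list. With equal numbers of H3K27ac peaks the fetal shares were 30.3% and 33.0%, so their order turned over, and the adult shares were 28.9% and 35.5%.

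Neighbours were clearer when sorted by the lists in which they were called. H3K27ac peaks of both stages were merged into elements, and an element was classed as called in the fetal list, in the adult list, or in both. A fetal-list element lay within 10 kb of 19.96% (16.6 to 23.7) of fetal-only regions and 7.36% (4.77 to 10.8) of adult-only regions, against 14.5% of all. An adult-list element lay within 10 kb of 2.74% (1.51 to 4.55) and 5.21% (3.07 to 8.22), against 5.28% of all. Elements of both lists were near 26.4% (22.6 to 30.5) of fetal-only and 34.7% (29.5 to 40.1) of adult-only regions, and near 3495 of all 11655. Neighbours of the fetal list were thus more frequent beside fetal-only than adult-only regions, and intervals for the 2 classes did not overlap. For adult-list neighbours the intervals overlapped at 10 kb.

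At 50 kb the same order was present for both kinds. Fetal-list elements were near 47.2% (42.8 to 51.6) of fetal-only and 35.6% (30.4 to 41.0) of adult-only regions, against 43.5% of all regions. Adult-list elements were near 13.9% (11.01 to 17.2) and 24.8% (20.2 to 29.9), against 20.8% of all. For both kinds the intervals of the 2 classes did not overlap. The share in the class of the same stage had an interval that held the share over all regions, while the other class lay below it and near the regions acetylated in neither stage, at 31.5% and 14.2%. Elements of both lists were near 66.7% and 77.6%, against 73.7% of all. Distal elements, those touching no H3K4me3 peak of either stage, made up most of the fetal-list neighbours, and within 10 kb they were near 17.2% (14.0 to 20.8) of fetal-only and 5.83% (3.55 to 8.95) of adult-only regions, against 12.7% of all, 13.2% of regions acetylated in both and 6.11% (4.55 to 8.00) of those acetylated in neither. Distal adult-list elements within 10 kb were near only 9 regions of each class. With equal numbers of H3K27ac peaks, fetal-list elements were within 10 kb of 10.1% of fetal-only and 4.44% of adult-only regions, so the order was kept with a smaller gap in percentage points. Adult-list elements were within 10 kb of 6.62% and 9.51%, also in the order of the full lists. This sorting of neighbours was also added later, once values were known, and the bars of neighbouring elements show it.

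**Figure D5:**
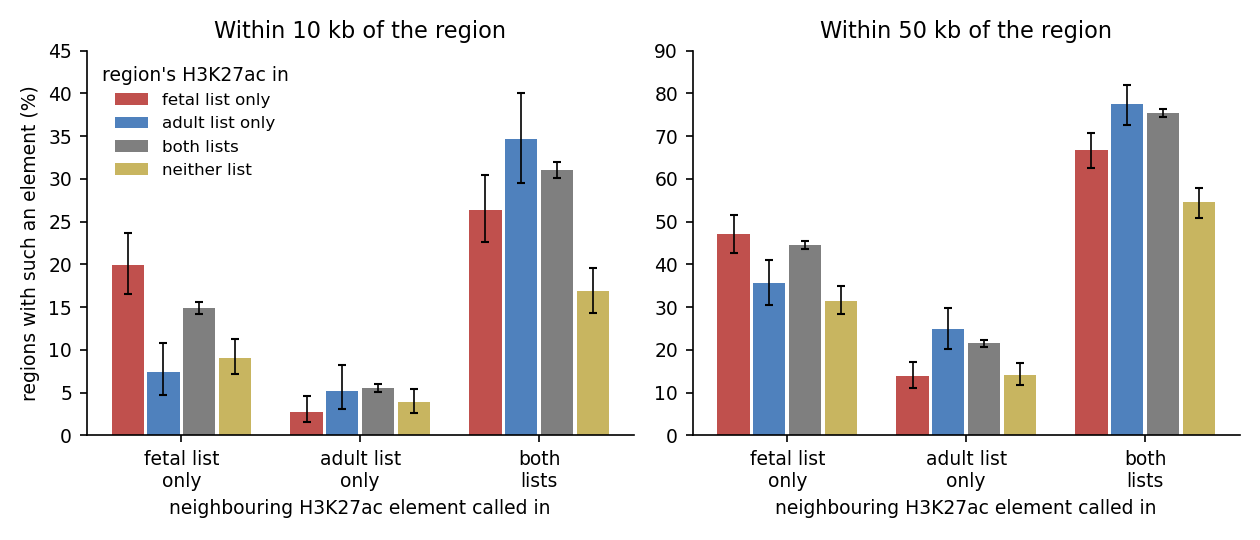
Percent of regions with a neighbouring H3K27ac element within 10 kb (left) and 50 kb (right), by the list in which the element was called and by the H3K27ac class of the region, with 95% exact binomial intervals as whiskers; the 2 panels have different vertical scales. Fetal-only regions exceed adult-only ones for fetal-list elements (19.96% against 7.36% within 10 kb) and lie below them for adult-list elements (13.9% against 24.8% within 50 kb).

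Within the fetal-only class, neighbours and H3K4me1 varied with the strength of the region's own acetylation. Of the 78 regions with H3K27ac above the median score of the fetal list, 34.6% (24.2 to 46.2) had a fetal-list element within 10 kb and 91.0% (82.4 to 96.3) held fetal H3K4me1. Of the other 433 these shares were 17.3% (13.9 to 21.2) and 73.9% (69.5 to 78.0). H3K4me3 rank was not higher with the stronger acetylation, with a median percentile of 18.8 (14.4 to 23.8) in the fetal list for the 78 and 22.7 (20.6 to 24.6) for the 433. Of the 78, 13 had an own peak that met adult acetylation outside the region. The 14 adult-only regions above the median score of the adult list had a median width of 2002 bp (1631 to 2271) against 1445.5 bp (1396 to 1514) for the other 312. Their H3K4me3 stood at percentile 57.3 (25.6 to 60.8) of the adult list against 36.5 (34.0 to 37.9). An adult-list element lay within 10 kb of 21.4% (4.66 to 50.8) of the 14 and 4.49% (2.47 to 7.41) of the 312. Fetal H3K4me1 was in 85.7% (57.2 to 98.2) and 72.8% (67.5 to 77.6). For neighbours of the own list and for fetal H3K4me1 the direction was thus the same as in the fetal-only class, with few regions and overlapping intervals. For H3K4me3 rank it was not the same. The adult-only width intervals did not overlap, whereas the fetal-only median widths were close, at 1220 bp for the 78 and 1212 bp for the 433.

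H3K27me3 was absent from all regions by the rule but could lie nearby. A fetal H3K27me3 peak was within 10 kb of 13.7% (10.8 to 17.0) of fetal-only and 14.4% (10.8 to 18.7) of adult-only regions, against 7.96% (7.43 to 8.50) of regions acetylated in both and 16.1% of those acetylated in neither. The adult H3K27me3 list gave 6.65%, 6.13%, 4.02% and 8.35% in the same order. The median distance to a fetal H3K27me3 peak was 88697 bp (74228 to 103185) for fetal-only and 61600 bp (44268 to 75288) for adult-only regions. It was 85043 bp for regions acetylated in both and 77016.5 bp for those acetylated in neither. In the fetal list both single-stage classes thus had H3K27me3 within 10 kb more often than regions acetylated in both, and their own intervals overlapped. By median distance the fetal-only class did not lie nearer to H3K27me3 than regions acetylated in both.

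The fetal-only class was spread over all 19 chromosomes, with the highest share on chromosome 13. There 47 of 507 regions were fetal-only (9.27%) and 9 adult-only (1.78%), against 4.38% and 2.80% over all chromosomes. The 3 Mb from 21000001 to 24000000 of chromosome 13, picked after the counts had been seen, held 15 fetal-only and no adult-only region. In order, their 1 Mb bins held 29, 14 and 29 regions of all classes. The bin from 22000001 to 23000000 held 7 fetal-only regions among its 14, the most of any 1 Mb bin. Without these 3 Mb, 496 fetal-only and 326 adult-only regions remained. Adult-only regions outnumbered fetal-only ones on chromosome 7, with 34 against 25 among 871 regions, and on chromosome 11, with 38 against 29 among 980. The densest bin of adult-only regions, on chromosome 10 from 80000001 to 81000000, held 5 of 45.

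Most bins with a member held only 1, as a description of classes that made up only 4.38% and 2.80% of the regions. Of the 1798 bins of 1 Mb with an eligible region, 422 held a fetal-only region and 360 of those held 1, and 265 held an adult-only region and 216 of those held 1. Another fetal-only region lay within 10 kb of 14 of the 511 (2.74%), and no adult-only region had another within that distance, 0 of 326, with an upper bound of 1.13%. Within 100 kb, 11.7% (9.08 to 14.9) of fetal-only and 13.8% (10.2 to 18.03) of adult-only regions had a neighbour of their own class, and 5.09% and 7.98% had one of the other class. The classes differ in size, 511 against 326, so own-class and other-class shares are not on a like footing. No share over all regions was computed for these neighbours, so whether members cluster was not tested.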

How the data were processed

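The 8 combined peak lists of fetal and adult HSCs give a position, a name and a score for each peak. Per the submitters' processing notes, reads were aligned with Bowtie2 2.2.2 and the build is mm9. The peaks are named MACS_peak in the deposited lists. The version, settings and control of the caller are not given in the sources used here. The score is the authors' value for each peak in the deposited lists, at least 50, with no stated unit and a pile-up at 3100. Scores ranked peaks within a list only. The 4 input samples and the separate replicates were not used here, and the depth is unknown.

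H3K4me3 peaks of both stages on chromosomes 1 to 19 were merged at 1 bp overlap and classed by H3K27ac. A region took the highest score of its overlapping peaks. Neighbours were counted within 10 and 50 kb, and flanks were 1 kb. Shares and medians have 95% intervals, and no test was made. Named regions were, in each class, the 8 with the highest H3K27ac score, the 4 widest and the 3 with the least H3K27ac, plus 3 just outside the rule. Members, lists and alternatives were chosen with earlier results of these data known. On simulated lists, 2000 of 2000 classes, 2000 of 2000 H3K4me1 overlaps and 1816 of 1816 nearby peaks were recovered. Software was Python 3.11.15 with scipy 1.17.1, matplotlib 3.10.9, pandas 2.3.3 and numpy 2.4.6.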

Additional observations from a re-analysis of the deposited data

Results flagged for a closer look

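The X chromosome lay outside the rule and was classed the same way. Of its 437 regions with H3K4me3 in both lists and no H3K27me3, 34 were fetal-only, or 7.78% (5.45 to 10.7), and 32 were adult-only, or 7.32% (5.06 to 10.2). H3K27ac was called in both lists at 290 regions (66.4%) and in neither at 81 (18.5%). On chromosomes 1 to 19 the same shares were 4.38% fetal-only, 2.80% adult-only, 85.9% both and 6.88% neither. The difference between the X chromosome and the others was not tested.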

How the results depend on the processing

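No paired analysis was possible because the deposited lists combine both replicates, which also means that no single one could be left out. The alternative on the distance to gene starts was not run, since gene positions of mm9 were not used here. Under the alternatives, 153 values of the main measures stayed within their interval, or within 1.5 times the count, and 53 moved. These are given here, and the cause was not tested.

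Keeping only H3K27ac peaks at or above the median score of their list gave 1057 fetal-only and 547 adult-only regions (65.9% fetal-only), of which 78 and 14 were among the 511 and 326. Given for fetal-only and then adult-only regions, the median width was then 1610 and 1976 bp. H3K4me3 covered 93.8% and 95.4% of the region in the fetal list and 97.5% and 98.2% in the adult list, at percentiles 39.3 and 61.3 of the fetal list and 37.2 and 60.7 of the adult list. Fetal H3K4me1 was in 90.6% and 90.1%, and adult H3K4me1 in 12.8% of fetal-only regions. Another fetal H3K27ac peak was within 10 kb of 28.1% and 24.1%, and another adult one of 20.3% and 21.2%.

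Equal numbers of top-scoring H3K27ac peaks gave 287 and 789 regions (26.7% fetal-only). The adult-only H3K4me3 percentiles became 39.6 in the fetal and 39.3 in the adult list. Fetal H3K4me1 was in 82.9% and adult H3K4me1 in 8.36% of fetal-only regions. Another fetal peak was near 30.3% and 33.0%, a fetal-list element near 10.1% and 4.44%, and an adult-list element near 6.62% and 9.51%.

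Equal numbers of H3K4me1 peaks gave fetal shares of 15.3% and 9.51%, and counting H3K4me1 within 1 kb gave an adult share of 8.81% in fetal-only regions. Within 50 kb another fetal peak was near 77.3% and 83.1%, another adult one near 69.5% and 81.6%, and elements of the fetal list, the adult list and both were near 47.2% and 35.6%, 13.9% and 24.8%, and 66.7% and 77.6%. Distal fetal peaks within 10 kb were near 21.3% and 11.04% and distal adult peaks near 8.22% and 9.20%. Distal adult-list elements were near 2.76% of adult-only regions, and distal elements of both lists near 5.09% and 6.44%.

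The order of the 2 classes was kept in 8 of 8 alternatives for width, 9 of 9 for each H3K4me3 percentile, 10 of 10 for fetal H3K4me1 in the region and for adult H3K27ac nearby, 8 of 10 for fetal H3K27ac nearby, 7 of 10 for adult H3K4me1 and 7 of 8 for the number of regions. Most alternatives held nearly the same regions, so these counts are not independent checks. A kept order does not mean that the intervals of the classes were apart.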
